A study of Mus musculus with 6 samples.

Results

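Alternative splicing in skeletal muscle is set in part by 5 families of RNA-binding proteins, the hnRNP, SR, MBNL, RBFOX and CELF proteins, and their transcripts were followed here in trained and untrained mice. The members were all genes in the deposited table whose symbol begins with Hnrnp, or with Srsf, Mbnl, Rbfox or Celf followed by a digit, which gave 44 of 16759 genes: 21 hnRNP, 11 SR, 3 MBNL, 3 RBFOX and 6 CELF genes. Hind-leg muscle was taken from male C57BL/6J mice that were 8 weeks old when the study began. Mice of the exercise group (EX, n = 3) were trained by treadmill running in daily sessions of 60 min, 5 per week, for 6 weeks, covering 22 km each, with muscle collected 24 h after training ended. Control mice (Con, n = 3) were of the same strain, sex and starting age and were not trained. Each mouse gave 1 RNA-seq library of hind-leg muscle, from which fat between the muscles had been removed. The paper does not state which of these muscles the RNA sample came from.

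Pre-mRNA splicing is steered by proteins that read short sequence elements in exons and introns. SR proteins, which carry stretches rich in serine and arginine, mostly bind exonic enhancers and favour inclusion of the exon, whereas many hnRNP proteins bind silencers and oppose them. MBNL proteins bind YGCY elements, RBFOX proteins bind GCAUG and CELF proteins bind GU-rich elements, and in striated muscle these families drive the switch from fetal to adult isoforms of contractile and calcium-handling genes.

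The libraries held between 13845400 and 16240400 counts on genes. All 6 muscle markers (Acta1, Ckm, Mylpf, Tnnt3, Myh4 and Myh1) were present, with a summed level of 144451 to 152573 CPM (counts scaled to library size) in Con and 155567 to 163805 in EX. The summed marker levels of 6 of 8 other cell types did not overlap between the groups, and those of smooth muscle and lymphocytes did. The summed level of the 4 fibroblast and tendon markers was 286 to 289.9 CPM in Con and 446 to 459 in EX (mostly Col1a1 and Col1a2, while Pdgfra of the same list had 19.9 to 21.5 and 18.4 to 19.5), that of the 4 macrophage markers 24.4 to 28.3 and 45.0 to 50.2, that of the 3 adipocyte markers 3.51 to 3.83 and 8.58 to 10.8, that of the 3 satellite cell and myoblast markers 52.6 to 55.7 and 70.0 to 74.3 (from Myod1 and Myog, while Pax7 had 6.31 to 7.71 and 6.10 to 7.19), and that of the 4 endothelial markers 526 to 537 and 451 to 473. The 2 smooth muscle markers summed to 130 to 147 CPM in Con and 128 to 134 in EX (Acta2 higher by 0.15 and Myh11 lower, at -0.30, on the log2 scale, both past the threshold), the 4 Schwann cell and neuron markers to 39.4 to 44.0 and 29.7 to 31.5, and the 3 lymphocyte markers to 1.63 to 2.01 and 1.72 to 2.65. Snap25, Rbfox3 and Cd3e were at 0 in some libraries. In whole muscle, fewer cells of a type and less RNA per cell cannot be told apart, and the part of these cell types in the differences below was not tested.

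Members of each family were unequally abundant. Levels between genes were compared as TPM, transcript abundances corrected for length and depth. Hnrnpa2b1, an hnRNP that binds and sorts mRNAs and is mutated in an inherited inclusion body myopathy, had the highest level of all members, with 282, 297 and 327 TPM in Con and 326, 305 and 324 TPM in EX. Srsf5, a classical SR protein, came next with 265, 258 and 269.6 TPM in Con and 223, 216 and 202 TPM in EX. Hnrnpa2b1 was higher than Srsf5 in each of the 6 libraries, and the EX mice had the lower Srsf5 values. Rbfox1, the muscle and neuron form of its family, followed with 146, 144 and 156 TPM in Con and 147, 133 and 136 in EX.

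Below these came a group of neighbours whose ranges ran into each other. Mean levels over the 6 libraries were 131 TPM for Hnrnpk, a poly-C-binding protein, 127 for Hnrnph1, which binds runs of G, 117 for Mbnl1, which is trapped by CUG repeats in myotonic dystrophy, 109.7 for Hnrnpa1, the prototype splicing repressor, and 109 for Srsf2, the speckle protein SC35. The lowest of the tested members were Hnrnpd at 12.2, Srsf9 at 11.6 and Celf2 at 11.5 TPM. In each of the small families the first gene dominated: Mbnl1 supplied 64.0%, 64.3% and 64.5% of the summed MBNL level in Con, Rbfox1 supplied 85.5%, 84.9% and 85.4% of RBFOX, and Celf1 supplied 70.5%, 71.0% and 72.0% of CELF.

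**Figure D1:**
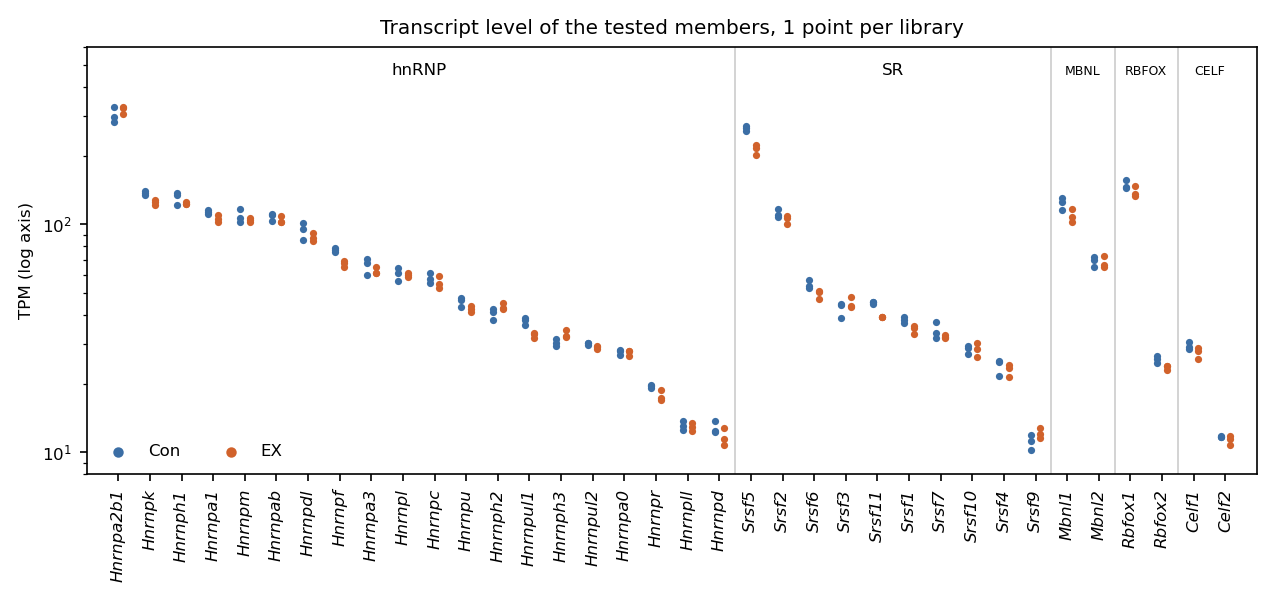
TPM (log axis) of the 36 tested members, grouped by family and ordered by mean level, with 1 point per library (blue, Con; orange, EX). Hnrnpa2b1 and Srsf5 stand above all others, and the Con and EX points of most genes overlap.

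A further 8 members were hardly transcribed in muscle and did not reach the minimum mean of 1 FPKM (fragments per kilobase of transcript, scaled to depth) set for the test. For Rbfox3, the neuronal NeuN antigen, the Con libraries held 1, 0 and 0 counts and the EX libraries 6, 3 and 0. Mbnl3 reached 5, 6 and 4 counts in the Con libraries, against 7, 4 and 3 in the EX libraries. The mostly neuronal Celf3, Celf4 and Celf5 had between 0 and 6 counts in every library. Celf6 and Srsf12 had a single count in 1 library each, Con replicates 2 and 1, and the pseudogene Hnrnpa1l2-ps2 had 0.58 counts in Con replicate 1. A count of 0 allowed up to 0.188 to 0.215 CPM, depending on the library, so differences among these genes were not detectable at this depth. The remaining 36 members (20 hnRNP, 10 SR, 2 MBNL, 2 RBFOX and 2 CELF genes) had between 90 and 6895 counts per library.

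The main comparison asked whether training shifted the transcripts of these regulators. Of the 36 tested members, 6 differed between EX and Con at an adjusted p under 0.05 (edgeR quasi-likelihood test with Benjamini-Hochberg adjustment over 10883 genes). This was 16.7% of the members, against 17.9% of all genes tested. Higher in EX were Hnrnpa2b1, Hnrnph2, Hnrnph3 and Srsf3, 11.1% of the members against 9.11% of all genes. Lower in EX were Srsf5 and Srsf11, 5.56% against 8.8%. The members' share was thus near the background in either direction. By family, 3 of 20 hnRNP genes rose and none fell, 1 of 10 SR genes rose and 2 fell, and none of the 6 MBNL, RBFOX and CELF genes passed in this test or in DESeq2 on the same genes. At an unadjusted p under 0.05 stood 9 members (25.0%, against 30.6% of all genes), the 6 above with Hnrnpul1, Hnrnpf and Mbnl1, all 3 lower in EX.

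The differences were small. No member changed by more than 1.5-fold, the 6 called members had a median absolute log2 fold change of 0.18 against 0.25 for all genes called, and the median absolute value over the 36 members was 0.04 against 0.10 over all genes. Signs were mixed, with 19 members above 0 and 17 below. The median log2 fold change was 0.02 for hnRNP, -0.02 for SR, -0.02 for MBNL, -0.01 for RBFOX and 0.03 for CELF genes, beside -0.00 for all genes tested. With each library left out, the medians crossed 0 for hnRNP (-0.014 to 0.041), MBNL (-0.062 to 0.0038) and RBFOX genes (-0.033 to 0.017) and kept their sign for SR (-0.046 to -0.0082) and CELF genes (0.0050 to 0.060), and the hnRNP median was -0.0030 with totals that omit the 20 most abundant genes. Every family median was below 0 on the TPM scale, where the median of all genes was also shifted, to -0.09. The CPM of the groups did not overlap in 10 of the 36 members, or 27.8%, against 33.7% of all genes tested. The TPM did not overlap between the groups for 2 members higher in EX (5.56%, against 6.4% of all genes) and for 11 lower (30.6%, against 33.5%). In the plot of differences the called members lie at the upper edge of the hnRNP panel and at both ends of the SR panel, and the intervals of 27 of the 30 uncalled members include 0.

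**Figure D2:**
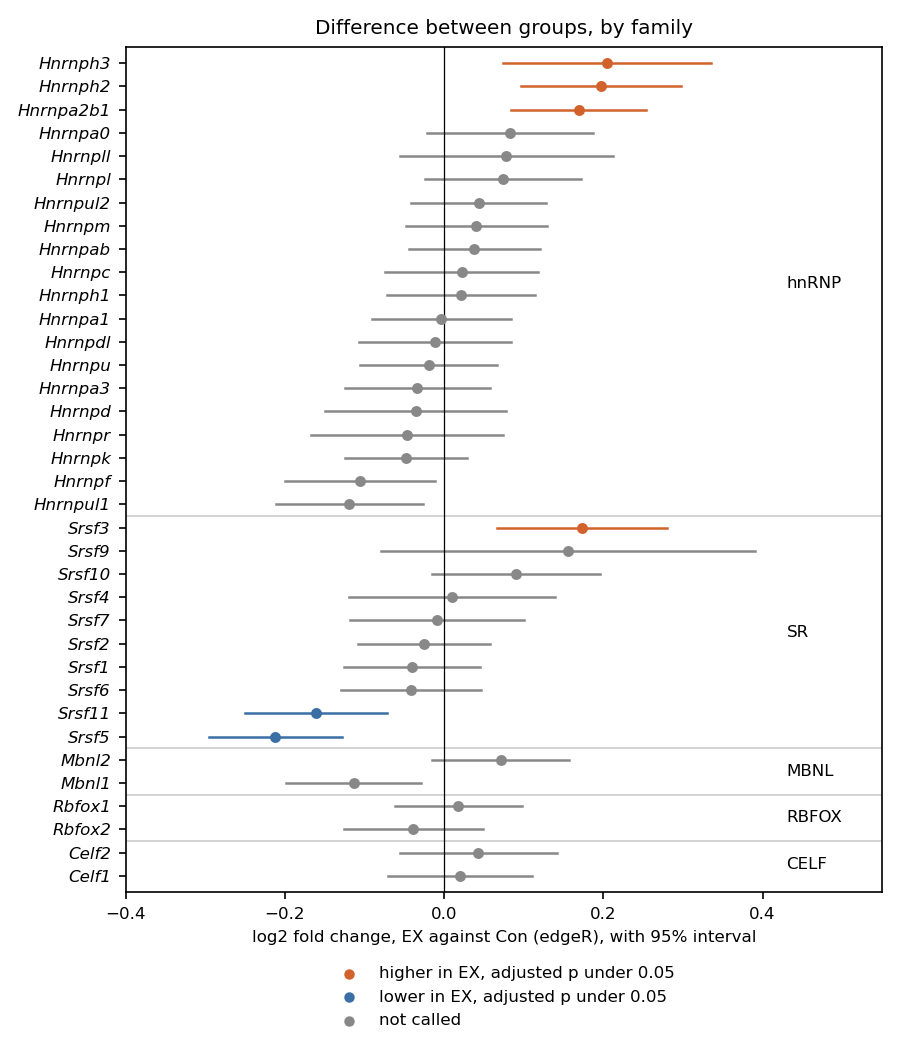
Log2 fold change of EX against Con on the x axis (edgeR, points) with 95% intervals (lines) for the 36 tested members by family; orange and blue mark adjusted p under 0.05, higher or lower in EX. The called members lie between -0.21 and 0.20.

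Srsf5 showed the firmest difference. Its normalised level was 221, 214 and 220.3 CPM in Con and 194, 194 and 177 CPM in EX. All 3 EX mice lay below all 3 Con mice, and EX replicate 3 was the lowest. The log2 fold change was -0.21 ± 0.041 (SE), with an adjusted p of 0.000405 in edgeR. Srsf5 fell in every one of 15 alternative analyses, with log2 fold changes from -0.31 to -0.17.

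Srsf11, an SR-related protein also called p54 that contacts the U2AF complex, stood at 107, 100.2 and 105 CPM in Con and 93.5, 91.3 and 93.7 CPM in EX. The EX values lay close together and below every Con value. Its log2 fold change was -0.16 ± 0.043 (SE, adjusted p = 0.00912, edgeR), and this fall also held in all 15 alternatives.

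Among the rises, Hnrnpa2b1 had 336, 355 and 383 CPM in Con and 413, 391 and 405 CPM in EX. The highest Con mouse was close to the lowest EX mouse. The log2 fold change was 0.17 ± 0.041 (SE, adjusted p = 0.00409). Hnrnph2, an X-linked relative of Hnrnph1, had 55.2, 60.9 and 58.8 CPM in Con and 68.2, 67.4 and 65.2 in EX, and Hnrnph3, the shorter member of that subgroup, had 23.5, 24.8 and 25.1 in Con and 29.3, 27.8 and 27.6 in EX. For both genes the EX mice lay above all Con mice. Hnrnph2 rose by 0.20 ± 0.049 (log2, SE, adjusted p = 0.00494) and Hnrnph3 by 0.20 ± 0.063 (adjusted p = 0.0238).

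Srsf3, the smallest SR protein and an adaptor of mRNA export, had 59.9, 67.6 and 67.7 CPM in Con and 77.4, 72.0 and 71.0 CPM in EX. Con replicate 1 was low and EX replicate 1 was high. The log2 fold change was 0.17 ± 0.052 (SE, adjusted p = 0.0197). Without Con replicate 1 the adjusted p was 0.114, and without EX replicate 1 it was 0.122. DESeq2 ended the calls of Srsf3 (adjusted p = 0.0623) and Hnrnph3 (0.126). Hnrnph3 likewise passed the threshold neither without Con replicate 1 (0.0772), nor without Con replicate 2 (0.0575), nor without EX replicate 1 (0.0966).

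The split of the calls by direction differed between analyses. Counts scaled by trimmed means gave 4 members higher and 2 lower in EX, and edgeR with totals that omit the 20 most abundant genes, which changes the scaling alone, gave 4 higher and 5 lower. Limma on log2(TPM + 0.1), which changes both the scale and the test, gave 0 higher and 5 lower, namely Srsf5, Srsf11, Hnrnpf, Hnrnpk and Hnrnpul1. On the TPM scale the groups overlapped for Hnrnpa2b1 and for Srsf3, while Hnrnph2 (38.1 to 42.3 TPM in Con, 42.6 to 45.1 in EX) and Hnrnph3 (29.2 to 31.3 and 32.0 to 34.5) stayed apart. None of the 4 rises passed limma on FPKM or TPM, with adjusted p between 0.0663 for Hnrnph3 and 0.391 for Srsf3.

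**Figure D3:**
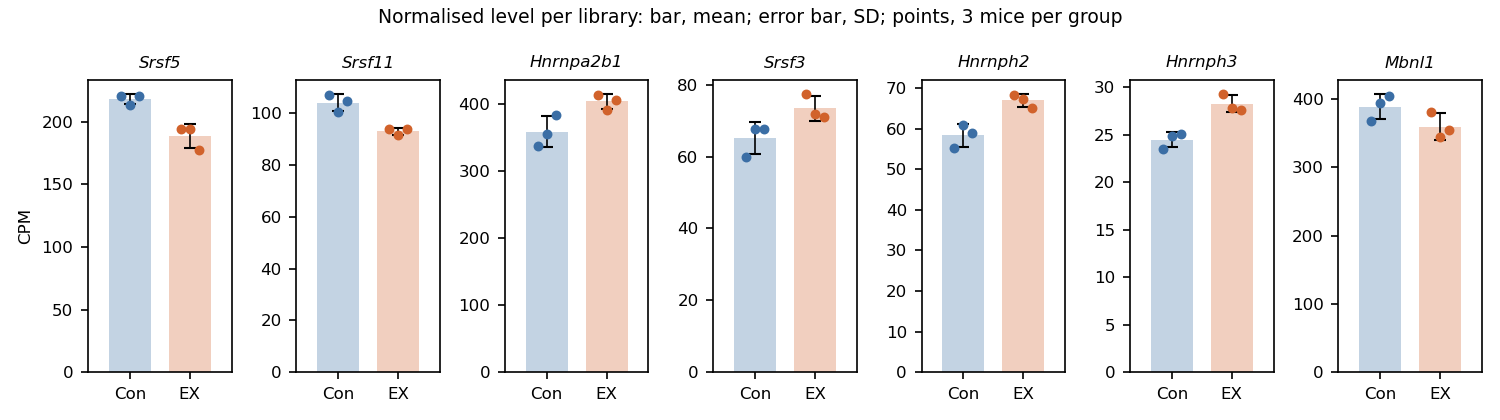
CPM (y axes, from 0) of the 6 called members and of Mbnl1 in Con and EX, with bars for the mean, error bars for the SD and 1 point for each of the 3 mice per group. The points of the groups do not overlap for the 6 called members and overlap for Mbnl1.

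Because the called genes moved in both directions, the sequences just upstream of their transcription starts are shown for comparison. They are RefSeq promoter windows on GRCm38.p6, which held 40 of the 44 members, cut to the bases that lie upstream of every annotated start of the gene. The window of Srsf5 is chr12:80945249-80945498 (plus strand), that of Srsf11 chr3:158036640-158036856 (minus), that of Srsf3 chr17:29032410-29032627 (plus), that of Hnrnpa2b1 chr6:51469895-51470144 (minus) and that of Hnrnph2 chrX:134600929-134601178 (plus). None is given for Hnrnph3, whose window is covered by a transcript that starts 368 bases further upstream. Each is written 5′ to 3′ on the strand of the gene, and capitals mark matches on either strand to the ETS motif CCGGAAG, the NF-Y motif CCAAT or the GC box GGGCGG.
Srsf5: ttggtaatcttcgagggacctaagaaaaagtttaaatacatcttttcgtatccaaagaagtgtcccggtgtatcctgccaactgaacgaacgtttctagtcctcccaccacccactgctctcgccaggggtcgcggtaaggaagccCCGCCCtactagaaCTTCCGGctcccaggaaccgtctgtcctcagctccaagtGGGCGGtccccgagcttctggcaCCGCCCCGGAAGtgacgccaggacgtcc
Srsf11: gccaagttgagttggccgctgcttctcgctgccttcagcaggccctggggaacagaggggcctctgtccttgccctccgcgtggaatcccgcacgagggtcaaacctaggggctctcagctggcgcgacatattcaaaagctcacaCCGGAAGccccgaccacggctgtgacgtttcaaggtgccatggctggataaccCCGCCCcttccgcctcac
Srsf3: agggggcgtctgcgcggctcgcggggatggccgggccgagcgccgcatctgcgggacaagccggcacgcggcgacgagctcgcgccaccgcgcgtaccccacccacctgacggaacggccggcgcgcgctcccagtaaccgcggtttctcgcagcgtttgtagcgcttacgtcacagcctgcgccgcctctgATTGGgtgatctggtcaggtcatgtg
Hnrnpa2b1: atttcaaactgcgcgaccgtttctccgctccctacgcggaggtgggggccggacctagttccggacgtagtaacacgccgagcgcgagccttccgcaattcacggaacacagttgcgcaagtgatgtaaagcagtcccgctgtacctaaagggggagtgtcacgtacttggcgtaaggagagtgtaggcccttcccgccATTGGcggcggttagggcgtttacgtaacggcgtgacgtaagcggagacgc
Hnrnph2: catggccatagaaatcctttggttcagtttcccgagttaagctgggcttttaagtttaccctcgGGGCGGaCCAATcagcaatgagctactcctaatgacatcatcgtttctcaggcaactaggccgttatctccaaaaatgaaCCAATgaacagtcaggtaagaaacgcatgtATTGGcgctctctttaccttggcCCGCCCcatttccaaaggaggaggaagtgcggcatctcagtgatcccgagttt

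The falling genes Srsf5 and Srsf11 held 2 and 1 ETS matches, with 3 and 1 GC boxes, and no CCAAT. In Srsf5, the GC box and the ETS match nearest the start share 1 base. Of the rising genes, Srsf3 and Hnrnpa2b1 held 1 CCAAT each, and Hnrnph2 held 3 CCAAT and 2 GC boxes, with no ETS match in any of them. Over all 32851 promoter windows of 250 bases, 6.91% held the ETS letters, 33.8% CCAAT and 32.7% the GC box, and in the first 217 bases, the length left for Srsf11, the shares were 4.85%, 30.6% and 28.0%. None of the 5 windows held the CRE motif TGACGTCA, the YY1 motif AAGATGGC or TATAAA, which 1.55%, 1.56% and 12.4% of all windows of 250 bases held. These matches describe letters only.

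The other hnRNP genes were not called. Hnrnpul1, a relative of the nuclear scaffold protein hnRNP U, had 84.1, 80.9 and 82.5 CPM in Con and 76.0, 78.2 and 73.6 in EX. Hnrnpf, which binds G runs like Hnrnph1, had 102, 98.8 and 103 CPM in Con and 88.4, 98.6 and 94.9 in EX. All EX values of both genes lay below the Con values, for Hnrnpf by a narrow margin. The log2 fold changes of -0.12 ± 0.045 for Hnrnpul1 and -0.11 ± 0.046 for Hnrnpf (SE) missed the threshold, with adjusted p of 0.0659 and 0.115. Hnrnpul1 passed under 5 of the 15 alternatives (adjusted p from 0.0192 to 0.0487) and Hnrnpf under 4 (0.0138 to 0.0457), all lower in EX.

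Hnrnpa1 had 115, 117 and 118 CPM in Con and 111, 118 and 120.3 in EX, and its log2 fold change was -0.00 (95% interval -0.09 to 0.08, adjusted p = 0.965). Hnrnpk had 233, 227 and 235 CPM in Con and 221, 221 and 229 in EX, with a log2 fold change of -0.05 (-0.12 to 0.03, adjusted p = 0.419). Hnrnpc, which binds runs of U, had 93.3, 103 and 95.8 CPM in Con and 104, 95.8 and 96.8 in EX, with 0.02 (-0.07 to 0.12, adjusted p = 0.797). The study lists lactylation sites on the proteins of these genes. For Hnrnpa1 it also reports that the protein level and the lactylation both differed between the groups. The CPM of all 3 transcripts overlapped between the groups. Their edgeR intervals end short of the smallest change among the called members, an absolute log2 fold change of 0.16. On the TPM scale Hnrnpa1 (111 to 116 in Con, 103 to 109 in EX) and Hnrnpk (135 to 141 and 121 to 128) did not overlap, both lower in EX. Limma on log2(TPM + 0.1) called Hnrnpk at -0.14 (adjusted p = 0.0346) but not Hnrnpa1. The median of all genes on that scale was also shifted, to -0.09, and 33.5% of all genes were lower without overlap.

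For the remaining 12 hnRNP genes the log2 fold changes lay between -0.05 for Hnrnpr and 0.08 for Hnrnpa0, an AU-rich element binder. Hnrnpa0 had 42.8, 44.8 and 43.9 CPM in Con and 46.6, 45.6 and 47.2 in EX, without overlap, but its adjusted p was 0.282. Hnrnpl, which binds CA repeats, and its relative Hnrnpll differed by 0.07 and 0.08, Hnrnpm by 0.04, Hnrnpab by 0.04, Hnrnpul2 by 0.04 and Hnrnph1 by 0.02. Hnrnpdl, Hnrnpu, Hnrnpa3 and Hnrnpd, of which Hnrnpd (AUF1) marks AU-rich mRNAs for decay, lay between -0.01 and -0.04. Adjusted p for these 12 genes ranged from 0.282 to 0.903. On the TPM scale Hnrnpr and Hnrnpul2 were lower in EX without overlap, as were 33.5% of all genes tested. The counts of Hnrnpa3 were not whole numbers in any of the 6 libraries, and those of Hnrnpa1 were not whole in 1, so reads shared with near-identical copies may have been split, and both values are uncertain.

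Of the other SR genes, Srsf9 had the widest interval. With 6.46, 7.12 and 7.59 CPM in Con and 7.88, 7.64 and 8.13 in EX it was the least counted of the tested members. Its log2 fold change of 0.16 ± 0.11 (SE) had an adjusted p of 0.383. Srsf10, which turns into a repressor when dephosphorylated, differed by 0.09 (adjusted p = 0.246). Srsf1, the founding member SF2/ASF, differed by -0.04, Srsf2 by -0.02, Srsf6 by -0.04, Srsf7 by -0.01 and Srsf4 by 0.01, with adjusted p from 0.559 to 0.942. On the TPM scale Srsf1 and Srsf6 were lower in EX without overlap. Summed over the family, SR transcripts came to 641, 646 and 672 TPM in Con and 601, 573 and 575 TPM in EX, without overlap. On this scale 33.5% of all genes tested were also lower in EX without overlap. The median log2 fold change of all genes was -0.09 there. Without Srsf5 the SR sums were 376, 389 and 403 TPM in Con and 378, 357 and 373 in EX, which overlap. Srsf5 supplied 41.3%, 39.9% and 40.1% of the family level in Con and 37.1%, 37.7% and 35.1% in EX.

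Mbnl1 came close to the threshold. It had 368, 395 and 404 CPM in Con and 381, 344 and 354 CPM in EX. EX replicate 1 lay among the Con mice, and Con replicate 1 was the lowest of its group. The log2 fold change was -0.11 ± 0.041 (SE, adjusted p = 0.0573, edgeR). Leaving out Con replicate 1 gave -0.15 with an adjusted p of 0.00153, and leaving out EX replicate 1 gave -0.16 with 0.0171. It also passed in edgeR with totals that omit the 20 most abundant genes (-0.14, 0.0198) and among genes with at least 5 FPKM (-0.13, 0.0303), and under none of the other 11 alternatives. Mbnl2, its close paralogue, had 182, 193 and 198 CPM in Con and 211, 196 and 195 in EX, with a log2 fold change of 0.07 ± 0.042 (adjusted p = 0.266), and this value turned to -0.02 on the TPM scale.

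RBFOX and CELF transcripts gave no call. Rbfox1 had 400.3, 399 and 427 CPM in Con and 435, 403 and 405 in EX, a log2 fold change of 0.02 (95% interval -0.06 to 0.10), and Rbfox2 had 105, 109 and 113 in Con and 105, 106 and 107 in EX, a value of -0.04 (-0.13 to 0.05). Celf1, known as CUGBP1, had 104, 108 and 109.5 CPM in Con and 113, 104 and 109 in EX, a value of 0.02 (-0.07 to 0.11), and Celf2 had 60.3, 58.8 and 58.6 in Con and 63.0, 58.8 and 61.3 in EX, a value of 0.04 (-0.05 to 0.14). The CPM of the groups overlapped for all 4 genes. The TPM of Rbfox2 (24.7 to 26.5 in Con, 23.1 to 23.9 in EX) was lower in EX without overlap, like that of 33.5% of all genes tested. The direction of Rbfox1 and Celf1 also changed among the count fits with a library left out. Celf2 turned negative on the FPKM and TPM scales alone, where the median of all genes lay lower still.

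The balance between close relatives within a library does not depend on how libraries are scaled. The 15 pairs shown were chosen after the values of the genes had been seen and were turned so that most ratios fell, so they are a description without a test. Mbnl1 counts were 2.02, 2.04 and 2.04 times those of Mbnl2 in Con and 1.80, 1.76 and 1.82 times in EX. The Con mice lay close together, and the EX mice lay apart from them, including EX replicate 1, whose Mbnl1 level alone had been among the Con values. The mean log2 ratio fell by 0.18.

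Among hnRNP F and H genes, the pairs with Hnrnph2 contain a called member. Hnrnpf counts were 1.85, 1.62 and 1.74 times those of Hnrnph2 in Con and 1.30, 1.46 and 1.46 times in EX, and Hnrnph1 counts were 2.73, 2.78 and 2.94 times those of Hnrnph2 in Con and 2.40, 2.51 and 2.57 times in EX. Neither ratio overlapped between the groups, and the log2 ratios fell by 0.31 and 0.17. Hnrnpa3 counts were 0.470, 0.478 and 0.459 times those of Hnrnpa2b1 in Con and 0.418, 0.407 and 0.397 times in EX. Of these genes only Hnrnpa2b1 was called, and the Hnrnpa3 counts, which are not whole numbers, leave the ratio uncertain. Hnrnpul1 counts were 0.775, 0.732 and 0.754 times those of Hnrnpul2 in Con and 0.673, 0.678 and 0.667 times in EX. These ratios did not overlap either, although neither Hnrnpul1 nor Hnrnpul2 was called alone.

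Among SR genes, Srsf5 counts were 6.00, 5.84 and 6.82 times those of Srsf4 in Con and 5.43, 5.18 and 5.37 times in EX, and 1.91, 1.83 and 1.79 times those of Srsf6 in Con against 1.66, 1.74 and 1.51 times in EX. Srsf7 counts were 0.765, 0.697 and 0.761 times those of Srsf3 in Con and 0.604, 0.666 and 0.691 times in EX. The groups stood apart in all of these, most narrowly for Srsf7 against Srsf3. Other pairs did overlap: Rbfox1 to Rbfox2 was 3.80, 3.67 and 3.79 in Con and 4.14, 3.79 and 3.78 in EX, and Celf1 to Celf2 was 1.73, 1.84 and 1.87 in Con and 1.80, 1.77 and 1.78 in EX. Hnrnpd to Hnrnpdl and Hnrnpl to Hnrnpll overlapped too, with log2 ratios that differed by -0.03 and -0.00.

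**Figure D4:**
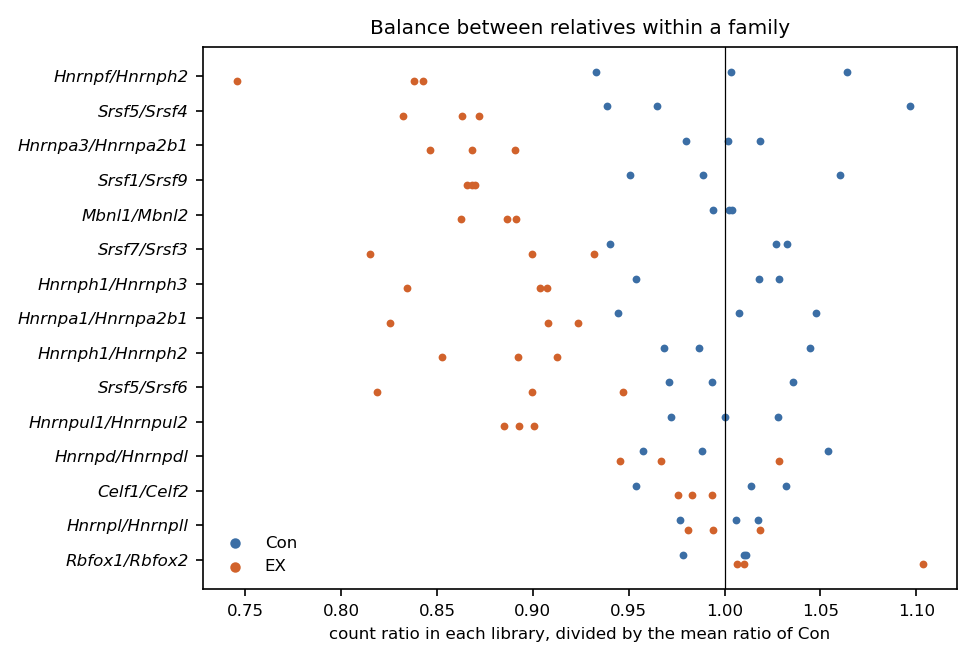
Count ratio of 15 pairs of relatives in each library, divided by the mean ratio of Con (x axis), with 1 point per library (blue, Con; orange, EX). Con and EX points are apart for Mbnl1/Mbnl2 and Hnrnpf/Hnrnph2 and mixed for Rbfox1/Rbfox2 and Celf1/Celf2.

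Con replicate 1 had the fewest counts (13845400) and the lowest CPM of the 3 Con mice in 26 of the 36 members, against 7 and 3 for Con replicates 2 and 3. The median log2 deviation of the members from their mean over all 6 libraries was -0.05 in Con replicate 1. That of all genes in this library was 0.00. Such a deviation also holds any difference between the groups. Without Con replicate 1, the counts of called members were 2 higher and 3 lower in EX, and Mbnl1 replaced Srsf3 and Hnrnph3 among them, and leaving out EX replicate 1 gave the same 5 members.

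SR protein genes are themselves spliced in ways that change transcript length, so the length behind each FPKM value was examined as a second readout. The ratio of count to FPKM gives the effective length that the authors' software assigned to a gene in a library, here set relative to the library's median gene. No member was called at an adjusted p under 0.05 (limma), as for 0% of 10873 genes, and the lowest adjusted p among members was 0.370. At an unadjusted p under 0.05, 4 of 36 members stood out against 5.66% of all genes, and the lengths of 5 members did not overlap between groups against 8.59% of all genes. The 4 members, singled out after their values were seen, were Srsf2, Rbfox1, Mbnl1 and Srsf9.

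Mbnl1 had relative lengths of 1.85, 1.84 and 1.83 in Con and 1.81, 1.80 and 1.81 in EX, a difference of -1.50%. Srsf2 had 0.827, 0.828 and 0.820 in Con and 0.811, 0.805 and 0.804 in EX, a difference of -2.15%. For both genes all EX lengths were the shorter ones. Rbfox1 had 1.60, 1.62 and 1.62 in Con and 1.65, 1.64 and 1.64 in EX (1.90%), and Srsf9 had 0.367, 0.371 and 0.374 in Con and 0.364, 0.357 and 0.351 in EX (-3.48%). As a scale for these values, Tpm3, the slow-fibre tropomyosin whose isoforms differ in length, had relative lengths of 0.748, 0.734 and 0.713 in Con and 0.516, 0.505 and 0.540 in EX. That difference of -0.49 on the log2 scale exceeded those of all tested members, and it too missed the threshold with an adjusted p of 0.0701 (limma). A length estimate cannot show which exon changed.

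**Figure D5:**
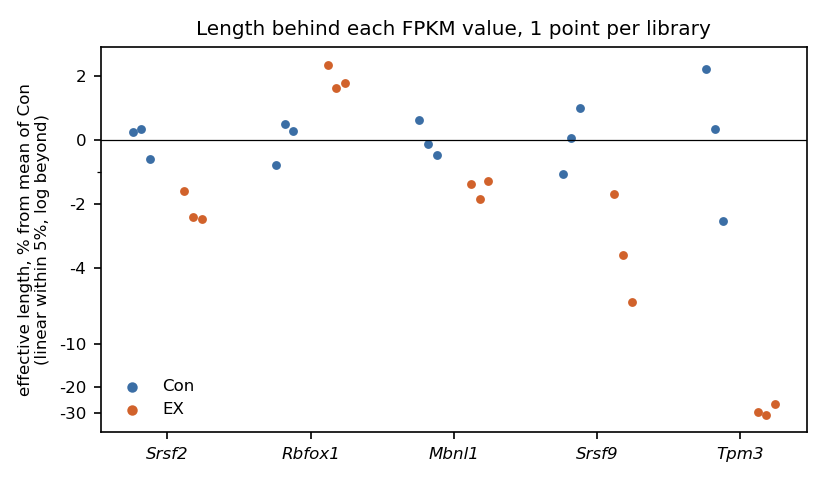
Effective length in each library as percent difference from the mean of Con (y axis, linear within 5% and logarithmic beyond) for Srsf2, Rbfox1, Mbnl1, Srsf9 and, for scale, the target gene Tpm3 (blue, Con; orange, EX). The EX points of the 4 members lie within a few percent of Con, whereas those of Tpm3 lie far below.

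The partners of these regulators were counted in lists chosen from textbook roles. Of 42 tested splicing regulators outside the 5 families, 2 were higher in EX (4.76%) and 7 lower (16.7%), against 9.11% and 8.8% of all genes. At an unadjusted p under 0.05 (edgeR) stood 33.3% of this list, against 30.6% of all genes. The rises were Tra2b, an SR-like enhancer protein (log2 fold change 0.18, adjusted p = 0.00995), and Pcbp1, a poly-C-binding protein (0.15, 0.0106). The falls included that of Rbm20, the titin splicing factor (-0.27, adjusted p = 2.39e-05). Rbm20 had 132, 132 and 134 CPM in Con and 113, 112 and 107 in EX, so that all EX mice lay below the Con mice, as they did for Srsf5.

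The enzymes and carriers that set the phosphorylation and nuclear import of SR proteins gave 4 rises and no fall among 16 tested genes in edgeR (25.0% and 0%, against 9.11% and 8.8% of all genes), with an unadjusted p under 0.05 in 6 (37.5%, against 30.6%). Dyrk1b, a kinase of muscle, rose by 0.28 (log2, adjusted p = 1.37e-05), Clk1, which phosphorylates SR proteins in the nucleus, by 0.16 (0.0211), and Ppp1ca, a catalytic subunit of protein phosphatase, by 0.12 (0.0430), with the fourth, Ppp1cc, also at 0.12. Clk1 had 66.9, 64.1 and 70.1 CPM in Con and 78.2, 71.8 and 74.7 in EX, without overlap. The SR protein kinases Srpk1, Srpk2 and the muscle form Srpk3 differed by 0.02, 0.03 and 0.04, with adjusted p of 0.898, 0.724 and 0.685. Of 66 core spliceosome genes, Cdc5l alone passed (0.14, adjusted p = 0.0292), or 1.52% against the 17.9% of all genes called, and 12 (18.2%, against 30.6%) had an unadjusted p under 0.05.

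Among 46 tested genes known as splicing targets in muscle, 16 were higher and 9 lower in EX at the gene level, 34.8% and 19.6% against 9.11% and 8.8% of all genes. The largest rises were in Tnnt1, the slow troponin T (4.26), Tnnt2 (0.95) and Tpm3 (0.58), and the falls included Nrap (-0.40) and Vldlr (-0.32), all log2 fold changes of total transcript. Tnnt1 had 2.15, 1.40 and 0.941 CPM in Con and 28.4, 29.9 and 26.7 in EX. In relative length, 9 of the 46 targets (19.6%, against 5.66% of all genes) had an unadjusted p under 0.05, and none passed the adjusted threshold. Whether these targets were bound or spliced by the members was not tested.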

How the data were processed

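Hind-leg muscle RNA of 3 Con and 3 EX mice was sequenced by the authors on the DNBseq platform as 150 bp read pairs. The paper's methods name HISAT and GRCm39, whereas the submitters' processing notes name cutadapt, featureCounts, MultiQC and GRCm38.p6, so the build behind the table is uncertain, and how shared reads were split is not given in the sources used here. The authors deposited estimated counts per gene, of which 4.18% to 4.44% per library are not whole numbers. The authors also deposited FPKM and TPM values normalized for length and depth, and 6 columns of group means that were not used.

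Counts were rounded, and the 10883 of 16759 genes that averaged 1 FPKM or more were fitted with edgeR 4.0.16 (TMM scaling, glmQLFit, glmQLFTest) in R 4.3.3. The threshold was an adjusted p under 0.05, with adjustment over all genes tested. CPM are TMM-scaled. Effective lengths, log2(count/FPKM) centred on each library's median, were fitted with limma 3.58.1. The scripts were tested on simulated counts. A count of 0 was taken to allow 3 counts, for counting error only. Alternatives were DESeq2 1.42.0, median-ratio size factors, totals without the 20 most abundant genes, no filter or a mean of 5 FPKM, limma on log2(FPKM + 0.1), log2(FPKM + 1) and log2(TPM + 0.1), which understate changes of low genes, a replicate block, and each library left out in turn.

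The members, gene lists and tests were chosen with earlier results of these data known. Named by rule were members past the threshold, the 2 with the highest mean TPM in each family, Hnrnpa1, Hnrnpc and Hnrnpk, members under the filter, and up to 3 rises and 3 falls per list of other genes, of which some are not reported here. Further members are named so that each is accounted for, and the choice of the 15 pairs of relatives and of other genes singled out was made with their values known.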

Additional observations from a re-analysis of the deposited data

How the results depend on the processing

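The falls of Srsf5 and Srsf11 passed the threshold under all 15 alternatives, the rises of Hnrnpa2b1 and Hnrnph2 under 12, that of Srsf3 under 9 and that of Hnrnph3 under 8. Between 4 and 9 members were called. Members called higher in EX numbered 2 with DESeq2 and 0 with limma on FPKM (either pseudocount) or on TPM, and 2 to 4 when each library was left out in turn. Members called lower numbered 5 with totals that omit the 20 most abundant genes, 4 under the stricter filter of 5 FPKM, 4 with limma on FPKM (either pseudocount), 5 on TPM, and 2 to 3 with each library left out. Genes called overall numbered 1949 with edgeR and 1228 with DESeq2.

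On log2(FPKM + 0.1), log2(FPKM + 1) and log2(TPM + 0.1), the median log2 fold changes were -0.037, -0.036 and -0.072 for hnRNP, -0.074, -0.072 and -0.11 for RBFOX and -0.038, -0.036 and -0.073 for CELF genes. On the TPM scale they were -0.079 for SR and -0.10 for MBNL genes. Those scales shift the median of all genes to -0.06, -0.05 and -0.09. Of the 18 members recomputed singly, none of the 6 called reversed. On the same 3 scales Celf1 went to -0.066, -0.063 and -0.10, Celf2 to -0.011, -0.0096 and -0.046, Hnrnpc to -0.030, -0.029 and -0.065, and Rbfox1 to -0.065, -0.065 and -0.10, and Mbnl2 went to -0.021 on TPM. With totals that omit the most abundant genes, Celf1 was -0.0048, Hnrnpc -0.0024 and Rbfox1 -0.0063. With each library left out, Celf1 ranged from -0.010 to 0.051, Hnrnpa1 from -0.027 to 0.028, Hnrnpc from -0.015 to 0.060 and Rbfox1 from -0.018 to 0.050. The cause was not tested.

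Replicate numbers did not pair the samples: same-numbered mice had correlations of deviations of -0.084, -0.052 and -0.073. With the replicate number as a block, the same 6 members were called, among 1782 genes, and 0 by effective length. No member was called by effective length in any of its 10 alternatives. The SE of the members was 0.037 to 0.11. In the main fit the smallest change called was an absolute log2 fold change of 0.16. With 3 mice per group, smaller differences could have been missed.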
